A study of Mus musculus with 11 samples.

Results

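The neurotrophin system of mouse hippocampus was followed through 5 genes, the ligands Bdnf and Ntf3 and the receptors Ntrk2, Ntrk3 and Ngfr. They were picked out by gene symbol, with a rule that used no measured value, and are 5 of the 24391 genes in the table of the heterozygous sequencing round and 5 of the 24015 in that of the homozygous round. Both tables hold all 5, and all 5 passed the filter of 1 CPM (a count scaled to its library's total) in 1 library or more. The mice were C57BL/6N and carried a deletion of 1b, a regulatory region of the sodium channel gene Scn1a, made with Cas9. The homozygous round held 2 mice with the deletion on both alleles (1b-/-, 1 male and 1 female) and 2 WT mice (both female). The heterozygous round held 4 mice with 1 deleted allele (1b+/-, 3 males and 1 female) and 3 WT mice (all male). Hippocampus from 1 hemisphere was taken at postnatal day 32, which the labels call adult. Many 1b-/- pups die early, so the 1b-/- mice sampled at this age are survivors.

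Neurotrophins are secreted proteins that keep neurons alive during development and adjust synapses in the adult brain. Each is made as a precursor that proteases cut, and the mature protein binds a Trk receptor tyrosine kinase, BDNF through TrkB (the product of Ntrk2) and NT-3 mainly through TrkC (the product of Ntrk3). The p75 receptor (the product of Ngfr) binds all neurotrophins and prefers the uncut precursors. In hippocampus, Bdnf mRNA is made by excitatory neurons and rises with neuronal activity, Ntf3 mRNA is known from dentate granule cells, and Ntrk2 is expressed in both neurons and astrocytes, the latter mostly as a receptor without its kinase. Counts per gene sum over such forms.

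Library totals ran from 20667122 to 36145161 counts. Scn1a, the targeted gene, stood at 91.1, 83.3, 96.6 and 119 CPM in 1b+/- mice against 171, 113 and 123 CPM in their WT mice, and at 26.3 and 16.7 CPM in 1b-/- mice against 134 and 173 CPM in theirs. The 1b-/- libraries had the lowest levels (log2 fold change -2.83 against their own WT mice and -2.72 against those of the heterozygous round), and the 1b+/- and WT ranges overlapped through the female 1b+/- mouse. The 1b+/- log2 fold change of Scn1a was -0.47 (Benjamini-Hochberg adjusted p = 0.303 in the edgeR quasi-likelihood test). It passed neither in that test nor in any of the 15 alternatives given below. In the heterozygous round, a fall of this size in the targeted gene was thus not called. The 2 WT libraries of the homozygous round stood apart from the other 9 libraries in markers of neighbouring brain regions. Summed over 12 striatum markers they held 8229 and 3395 CPM, against 247 and 331 CPM in 1b-/- libraries and between 199 and 413 CPM in the heterozygous round. Summed over 8 markers of basal forebrain cholinergic neurons they held 125.6 and 55.8 CPM, against 2.38 and 5.89 CPM in 1b-/- libraries and between 2.38 and 14.8 CPM in the heterozygous round. Homozygous-round results on Scn1a, the 5 genes and the named pathway genes are therefore given also against the WT mice of the heterozygous round, a comparison chosen after the data had been seen, in which genotype and sequencing round cannot be told apart. The WT mice of the heterozygous round were all male, whereas those of the homozygous round were female.

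In the mm9 assembly, Bdnf (ENSMUSG00000048482.7) lies on the plus strand of chromosome 2 from 109514857 to 109567204 and has 10 annotated transcripts. Ntf3 (ENSMUSG00000049107.7) occupies 126051431 to 126116762 of chromosome 6, minus strand. Ntrk2 (ENSMUSG00000055254.7) lies on the plus strand of chromosome 13 from 58907957 to 59235331, Ntrk3 (ENSMUSG00000059146.6) on chromosome 7 from 85337248 to 85723294, and Ngfr (ENSMUSG00000000120.6) on chromosome 11 from 95430132 to 95449049, the latter pair on the minus strand. No other annotated gene overlaps any of the 5. All 5 are protein-coding.

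Promoter windows from RefSeq, in the newer assembly GRCm38.p6, matched 4 of the 5 genes: 7 windows for Bdnf, which is transcribed from many alternative starts, 2 for Ntf3 and 1 each for Ntrk2 and Ngfr. Ntrk3 had no entry. The 250 bases before each start were searched on both strands for the cyclic AMP response element, the sequence that the activity-dependent factor CREB binds, and for the E-box CACGTG. The full element TGACGTCA occurred in 1.55% of 32851 windows and in none of the 11 windows of these genes. Its first 6 letters TGACGT, which the full element contains, occurred in 6.47% of all windows and in 1 window of Bdnf, beginning 36 bases before the start. CACGTG occurred in 6.02% of all windows and in 1 window of Ntf3, beginning 231 bases before the start. The 100-base stretches below, with these matches in capitals, belong to the 3 genes whose levels did not overlap between genotypes in the homozygous round. Of all 14838 genes tested in that round, 59.7% had no overlap either. The Bdnf stretch runs up to the start at chr2:109692336-109692435 (plus strand), the Ntf3 stretch covers bases 250 to 151 before the start at chr6:126166895-126166994 (minus strand), and the Ngfr stretch runs up to the start at chr11:95587699-95587798 (minus strand).
Bdnf: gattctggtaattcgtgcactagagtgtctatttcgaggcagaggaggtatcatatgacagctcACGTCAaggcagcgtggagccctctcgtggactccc
Ntf3: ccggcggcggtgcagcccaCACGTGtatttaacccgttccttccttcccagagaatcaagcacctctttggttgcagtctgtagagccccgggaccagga
Ngfr: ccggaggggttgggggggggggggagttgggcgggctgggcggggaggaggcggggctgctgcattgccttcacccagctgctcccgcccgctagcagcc
The capitals in the Bdnf stretch are TGACGT read on the other strand. The Ngfr window held neither motif and had the highest GC content of the 11, 70.4% over its 250 bases, while the Bdnf window shown had 45.6%. These matches describe the sequence and do not show that a factor binds there.

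Neither ligand differed detectably between 1b+/- and WT hippocampus. Bdnf stood at 45.9, 44.0, 43.4 and 40.0 CPM in the 1b+/- mice and at 42.6, 49.8 and 39.6 CPM in their WT mice. The 1b+/- values lay inside the WT range, and the log2 fold change was -0.02 with a standard error of 0.08 and a 95% interval from -0.20 to 0.16 (Benjamini-Hochberg adjusted p = 0.943 in the edgeR quasi-likelihood test). Permuting the labels in all 35 ways gave an exact two-sided p of 0.914, and 0.0286 is the lowest value that 4 mice against 3 can reach.

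In the homozygous round Bdnf stood at 35.4 and 43.0 CPM in the 1b-/- mice, from 1246 and 1373 counts, and at 7.67 and 15.1 CPM in the WT mice, from 170 and 323 counts. Both 1b-/- mice lay above both WT mice. The log2 fold change was 1.78 with a standard error of 0.34 and a 95% interval from 0.92 to 2.64, a ratio of 3.44, and it missed the threshold of 0.05 after adjustment over 14838 genes (Benjamini-Hochberg adjusted p = 0.0589 in the edgeR quasi-likelihood test). Permuting the labels in all 6 ways gave an exact two-sided p of 0.333, which is the lowest that 2 mice per genotype can reach. It was the WT libraries that were unlike the rest. With all 11 libraries scaled together, Bdnf stood at 34.9 and 41.8 CPM in 1b-/- mice, between 40.7 and 51.2 CPM in heterozygous-round WT mice, and at 7.54 and 14.9 CPM in homozygous-round WT mice. Set against WT mice of the other round, Bdnf in 1b-/- mice had a log2 fold change of -0.24, with a 95% interval from -0.69 to 0.21 (Benjamini-Hochberg adjusted p = 0.351 in the edgeR quasi-likelihood test).

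Ntf3, which encodes NT-3, was the scarcer ligand in every library. It stood at 4.60, 3.52, 4.15 and 3.69 CPM in 1b+/- mice and at 3.68, 4.68 and 3.39 CPM in their WT mice. The groups overlapped, and the log2 fold change was 0.02 (standard error 0.15, 95% interval from -0.33 to 0.37, Benjamini-Hochberg adjusted p = 0.974 in the edgeR quasi-likelihood test). In the homozygous round it stood at 8.40 and 4.67 CPM (296 and 149 counts) in 1b-/- mice and at 0.316 and 1.12 CPM in WT mice, from 7 and 24 counts. Both 1b-/- mice were above both WT mice, with the male 1b-/- mouse the highest of the 11 libraries. The log2 fold change was 3.18 (standard error 0.65, 95% interval from 1.52 to 4.84, Benjamini-Hochberg adjusted p = 0.0658 in the edgeR quasi-likelihood test), and the small WT counts leave its size loosely fixed. Scaled over all 11 libraries, the heterozygous-round WT mice stood at 3.78, 4.81 and 3.49 CPM, against 0.310 and 1.11 CPM in the homozygous-round WT mice and 8.28 and 4.54 CPM in 1b-/- mice. Compared with the former, 1b-/- mice had a log2 fold change of 0.67, with a 95% interval from -0.08 to 1.42 (Benjamini-Hochberg adjusted p = 0.121 in the edgeR quasi-likelihood test).

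**Figure D1:**
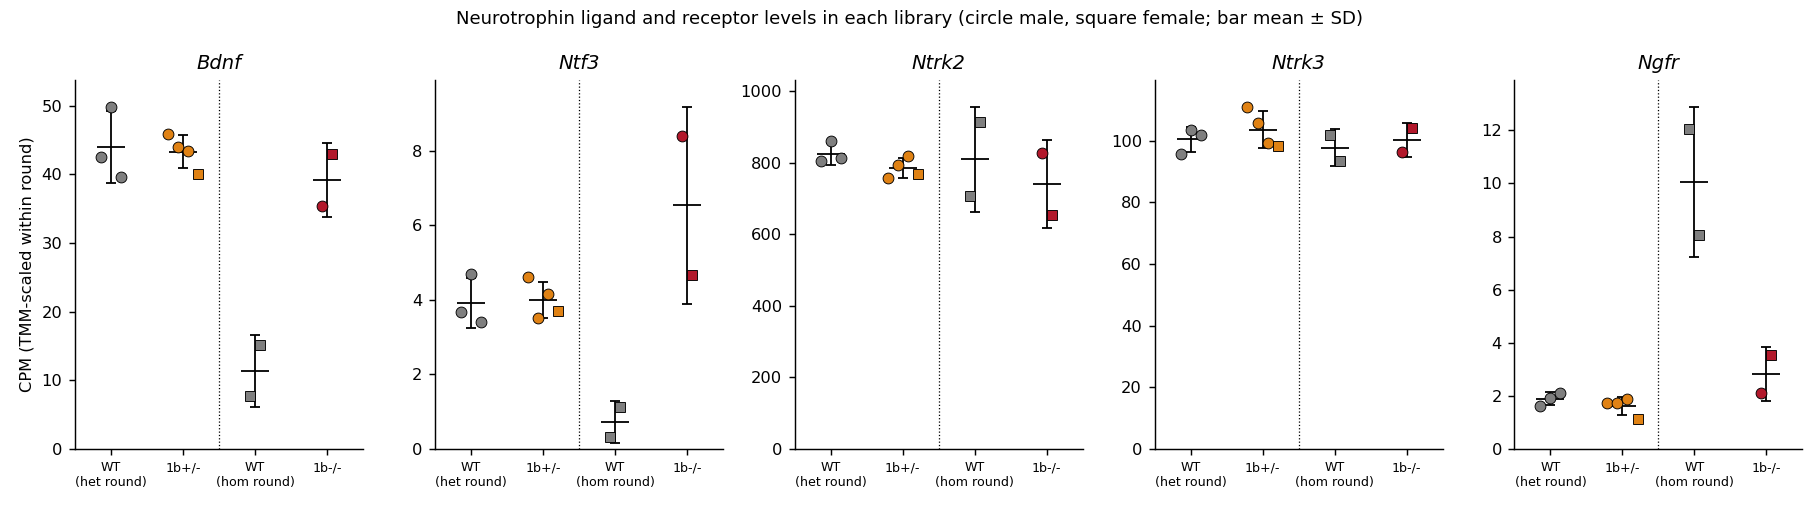
CPM of each gene in each of the 11 libraries, TMM-scaled within a sequencing round, with circles for males, squares for females and bars for the mean ± SD; the dotted line separates the rounds. The WT mice of the homozygous round were low in Bdnf (7.67 and 15.1 CPM) and Ntf3 (0.316 and 1.12 CPM) and high in Ngfr (12.1 and 8.05 CPM), whereas Ntrk2 and Ntrk3 overlapped between genotypes in both rounds.

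The Trk receptors were the most stable of the 5 genes. Ntrk2 stood at 758, 795, 819 and 769 CPM in 1b+/- mice and at 804, 861 and 813 CPM in their WT mice. The highest 1b+/- mouse lay within the WT range, and the log2 fold change was -0.07 (standard error 0.04, 95% interval from -0.17 to 0.02, Benjamini-Hochberg adjusted p = 0.550 in the edgeR quasi-likelihood test). In the homozygous round it stood at 827 and 654 CPM in 1b-/- mice and at 706 and 913 CPM in WT mice. These ranges overlapped widely, and the log2 fold change was -0.13 (standard error 0.21, 95% interval from -0.66 to 0.40, Benjamini-Hochberg adjusted p = 0.727 in the edgeR quasi-likelihood test).

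Ntrk3 stood at 111, 106, 99.4 and 98.2 CPM in 1b+/- mice against 95.8, 104 and 102 CPM in their WT mice, and at 96.4 and 104 CPM in 1b-/- mice against 102 and 93.6 CPM in theirs. All 11 values lay between 93.6 and 111 CPM, with overlap in both rounds. The log2 fold changes were 0.04 in 1b+/- mice (standard error 0.05, 95% interval from -0.08 to 0.17, adjusted p = 0.793) and 0.04 in 1b-/- mice (standard error 0.12, 95% interval from -0.26 to 0.34, adjusted p = 0.873), Benjamini-Hochberg values of the edgeR quasi-likelihood test. With WT mice of the other round as the reference, the 1b-/- log2 fold changes were -0.23 for Ntrk2 (95% interval from -0.50 to 0.04) and -0.07 for Ntrk3 (95% interval from -0.23 to 0.08).

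Ngfr, the least abundant receptor, stood at 1.73, 1.72, 1.88 and 1.11 CPM in 1b+/- mice, from 32 to 48 counts, and at 1.63, 1.92 and 2.12 CPM in their WT mice. The female 1b+/- mouse was the lowest and the other 3 overlapped with WT, and the log2 fold change was -0.23 (standard error 0.22, 95% interval from -0.71 to 0.26, Benjamini-Hochberg adjusted p = 0.737 in the edgeR quasi-likelihood test). Without the female mouse it was -0.08. In the homozygous round it stood at 2.10 and 3.54 CPM (74 and 113 counts) in 1b-/- mice and at 12.1 and 8.05 CPM in WT mice, from 267 and 172 counts. Both WT mice were higher than either 1b-/- mouse. The log2 fold change was -1.83 (standard error 0.36, 95% interval from -2.76 to -0.91, Benjamini-Hochberg adjusted p = 0.0626 in the edgeR quasi-likelihood test), so the 1b-/- level was 28.1% of the WT level. Scaled over all 11 libraries, the heterozygous-round WT mice stood at 1.67, 1.97 and 2.17 CPM and the homozygous-round WT mice at 11.8 and 7.93 CPM, with 1b-/- mice at 2.07 and 3.44 CPM. Against the former the 1b-/- log2 fold change was 0.51, with a 95% interval from -0.13 to 1.15 (Benjamini-Hochberg adjusted p = 0.165 in the edgeR quasi-likelihood test).

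Over the 5 genes, none passed an adjusted p of 0.05 in 1b+/- mice by edgeR's quasi-likelihood test, its likelihood ratio test or DESeq2, and none had an unadjusted p under 0.05. Among all 14630 genes tested, 0% were called, 11.3% had an unadjusted p under 0.05 and 10.9% had no overlap between the groups, which held for none of the 5. The quasi-likelihood test of edgeR called none of the 5 in 1b-/- mice, while Bdnf, Ntf3 and Ngfr had an unadjusted p under 0.05 and no overlap between groups. Among all 14838 genes tested, 3.58% were called (2.06% higher and 1.52% lower), 26.4% had an unadjusted p under 0.05 and 59.7% had no overlap, so 3 of 5 without overlap is close to the share of all genes. DESeq2 and edgeR's likelihood ratio test each called Bdnf, Ntf3 and Ngfr in 1b-/- mice. Against the heterozygous-round WT mice none of the 5 was called, while 52.2% of 14905 genes were.

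The changes in the 2 genotypes were also set against each other in a fit of all 11 libraries, in which each genotype was taken relative to the WT mice of its round. The 1b-/- change exceeded the 1b+/- change by 1.80 on the log2 scale for Bdnf (standard error 0.29, 95% interval from 1.15 to 2.44, adjusted p = 0.00201) and by 3.15 for Ntf3 (standard error 0.54, 95% interval from 1.97 to 4.34, adjusted p = 0.00242). For Ngfr the difference was -1.62 (standard error 0.40, 95% interval from -2.50 to -0.74, adjusted p = 0.0137). For Ntrk2 it was -0.06 (95% interval from -0.43 to 0.30) and for Ntrk3 -0.02 (95% interval from -0.24 to 0.20). All are Benjamini-Hochberg values of the edgeR quasi-likelihood test, which called 3 of the 5 genes and 27.3% of 14905 genes. This difference contains the difference between the WT mice of the rounds, which on the log2 scale, homozygous round minus heterozygous round, was -2.01 for Bdnf, -2.51 for Ntf3 and 2.35 for Ngfr, and -0.09 and -0.10 for Ntrk2 and Ntrk3. Number of deleted alleles and sequencing round cannot be told apart in it. The WT mice also differed in sex, female in the homozygous round and male in the heterozygous round. The fit shares its estimate of spread between the rounds. Its biological coefficient of variation was 14.1%, against 9.13% and 22.9% in the heterozygous and homozygous rounds alone. The standard errors for Bdnf and Ntf3 were below those of their 1b-/- changes alone (0.34 and 0.65), and that for Ngfr was above its own (0.36).

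**Figure D2:**
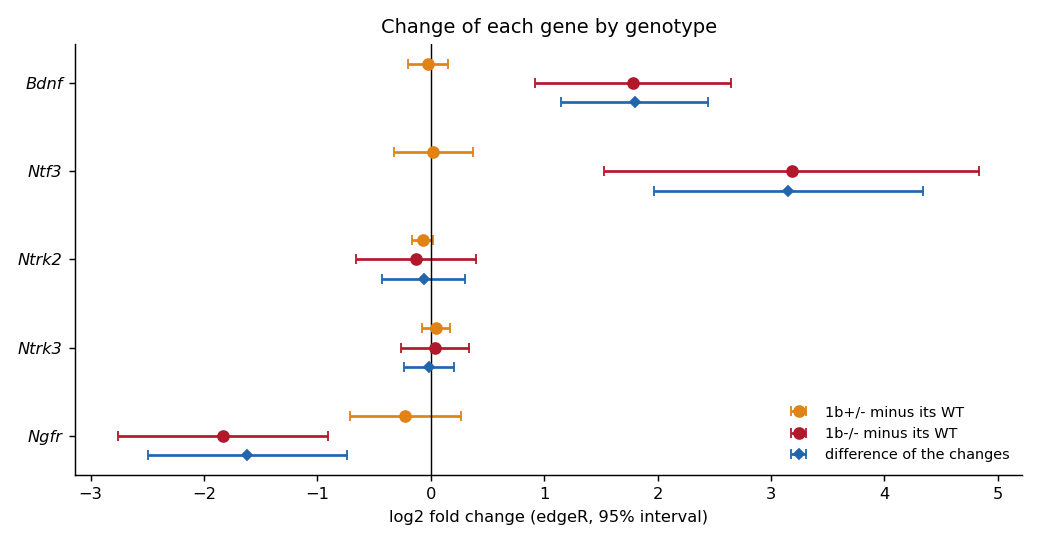
Log2 fold changes with 95% intervals for 1b+/- mice against their WT mice (orange), 1b-/- mice against theirs (red) and the difference between those changes (blue diamonds), from edgeR. The 1b+/- intervals all contain 0, whereas the 1b-/- intervals of Bdnf (0.92 to 2.64), Ntf3 (1.52 to 4.84) and Ngfr (-2.76 to -0.91) do not.

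In the homozygous round, the markers of other cell populations differed between the genotypes together with Bdnf, Ntf3 and Ngfr. Of 12 striatum markers tested, 11 were lower in 1b-/- mice with an adjusted p under 0.05, among them Drd2 (175 and 60.1 CPM in WT mice, 2.81 and 4.76 CPM in 1b-/- mice). Of 7 tested cholinergic markers 4 were lower, among them Chat, which encodes the enzyme that makes acetylcholine (29.3 and 11.98 CPM in WT mice, 0.0852 and 0.219 CPM in 1b-/- mice). Basal forebrain cholinergic neurons are known for high p75, and hippocampal granule and pyramidal neurons for Bdnf. Markers of dentate granule cells summed to 380 and 381 CPM in WT mice and to 489 and 519 CPM in 1b-/- mice, with 3 of 10 higher, among them Prox1 and C1ql2, while 3 others had negative log2 fold changes down to -0.78 (Pdzd2) that did not pass. Markers of CA1 pyramidal cells summed to 321 and 350.0 CPM in WT mice and 928 and 623 CPM in 1b-/- mice, with 3 of 7 higher, and those of CA3 pyramidal cells to 354 and 390 CPM and 480 and 513 CPM, also with 3 of 7 higher.

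**Figure D3:**
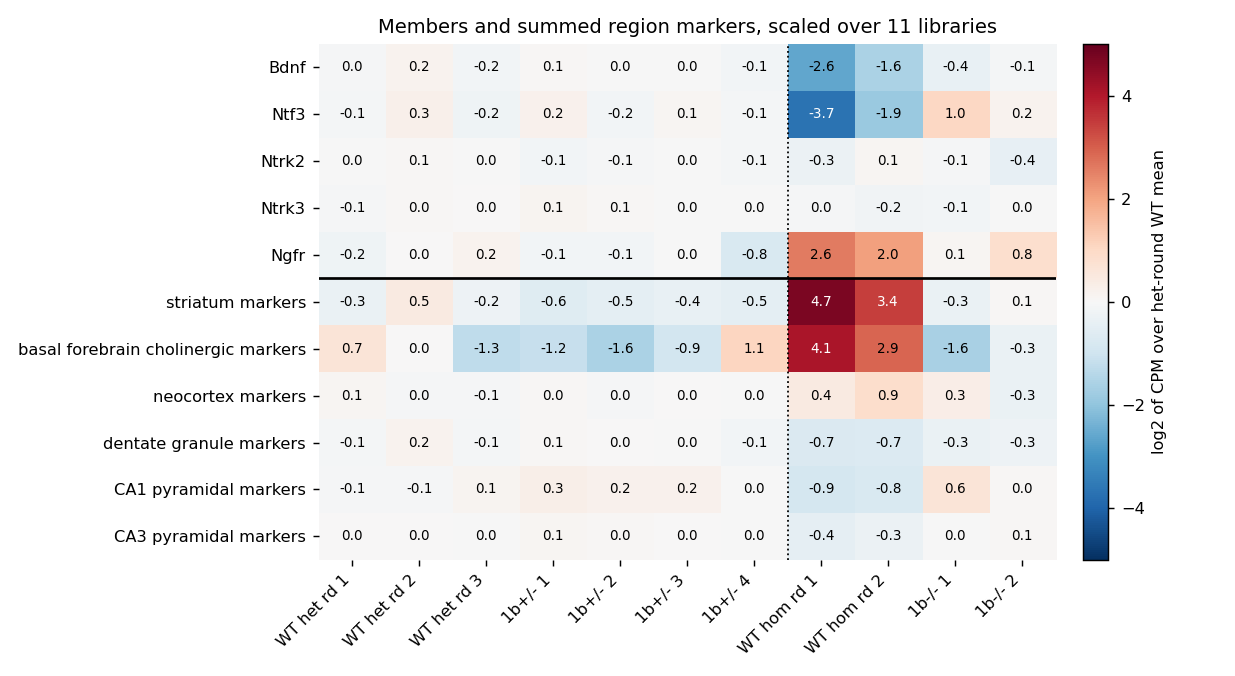
Log2 ratio of each library to the mean of the 3 heterozygous-round WT mice, with CPM scaled over all 11 libraries, for the 5 genes (above the line) and for summed markers of 6 regions or cell types (below it). In the 2 WT libraries of the homozygous round, the striatum and cholinergic sums were high (striatum 4.7 and 3.4), Ngfr was high (2.6 and 2.0), and Bdnf (-2.6 and -1.6), Ntf3 (-3.7 and -1.9) and the hippocampal sums were low.

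Of these 2 WT mice, the one with the higher striatum and cholinergic sums had the lower Bdnf and Ntf3 and the higher Ngfr. Other sums ran in different directions. In that mouse the oligodendrocyte (24389 against 18157 CPM), GABAergic interneuron (1770 against 1501 CPM) and endothelium and pericyte sums (346 against 294 CPM) were also higher. Its neocortex (409 against 553 CPM), CA1 (321 against 350 CPM), CA3 (354 against 390 CPM), astrocyte, meninges and choroid plexus sums were lower. The dentate granule and microglia sums were nearly equal. In the 1b-/- pair, the mouse with the higher striatum and cholinergic sums had the lower Ntf3 and the higher Ngfr, but the higher Bdnf. The 2 WT mice had 24.3 and 13.5 counts of Bdnf per count of Ntf3. These ratios rest on 7 and 24 counts of Ntf3, which leave them, and their difference, loosely fixed. The ratio was 4.21 and 9.21 in the mutants and 9.97 to 12.5 in the 7 mice of the heterozygous round. Further lists moved with the genotype in this round. All 8 oligodendrocyte markers had negative log2 fold changes in 1b-/- mice (median -0.57, 1 called), as did all 8 microglia markers (median -0.26, none called), and all 8 meninges markers had positive ones (median 1.64, 1 called). The neocortex list had a median of -0.54 with 1 of 7 called, lower. In bulk tissue, fewer cells of a type and less RNA per cell cannot be told apart. How far the marker difference enters the values of Bdnf, Ntf3 and Ngfr was not tested. In the heterozygous round no marker list had a called gene, although all 11 tested striatum markers had a negative log2 fold change (median -0.49, against 0.0007 over all genes tested) and all 8 oligodendrocyte markers a positive one (median 0.36). Choroid plexus sums ran from 60.0 to 2681 CPM in the 4 1b+/- mice and reached 13727 CPM in the female 1b-/- mouse against 61.3 CPM in the male. The 1b-/- male was the lower of the pair in Bdnf and Ngfr and the higher in Ntf3 and Ntrk2.

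Levels were compared between genes as RPKM, which divides CPM by exon length in kilobases, because the genes differ in exon length from 1427 bases for Ntf3 to 15094 bases for Ntrk2. Among heterozygous-round WT mice the order was Ntrk2 (54.7 RPKM ± 2.03, SD, n = 3), Ntrk3 (19.2 ± 0.782), Bdnf (7.52 ± 0.900), Ntf3 (2.75 ± 0.475) and Ngfr (0.548 ± 0.0713), and no neighbours overlapped. The order was the same, again without overlap of neighbours, in 1b+/- mice, from 52.0 RPKM for Ntrk2 to 0.468 RPKM for Ngfr, and in 1b-/- mice, from 49.1 to 0.818 RPKM. Among homozygous-round WT mice Ngfr (2.92 RPKM ± 0.822, SD, n = 2) stood next after Ntrk3, with a range that overlapped that of Bdnf (1.95 ± 0.899), and Ntf3 was last (0.504 ± 0.400). Transcripts of both Trk receptors lay above those of both ligands in all 4 groups.

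Across the 7 mice of the heterozygous round, whose striatum sums lay between 199 and 413 CPM, the coefficient of variation was 4.26% for Ntrk2, 4.99% for Ntrk3, 8.07% for Bdnf, 13.2% for Ntf3 and 18.2% for Ngfr. Counting error alone gives 0.689%, 1.93%, 2.95%, 9.81% and 14.9% in the same order. The spread of Ntf3 and Ngfr between these mice was little above counting error, while that of Ntrk2 was several times it. The value for Ngfr rests on the female 1b+/- mouse, without which it was 9.58% over 6 mice, below the counting error of 14.6%. The highest mouse exceeded the lowest by 1.14 times for Ntrk2, 1.26 times for Bdnf and 1.90 times for Ngfr, or 1.30 times without that mouse.

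The genes most alike to each of the 5 were named by Pearson's r of log2 CPM over the 11 libraries after the mean of each round had been subtracted, among 12771 genes. These values are descriptions. They share libraries and sequencing round, and the 4 libraries of the homozygous round, which differ most, weigh most in them. Bdnf was most alike to Rapgefl1 (r = 0.99), the transcriptional regulator Prdm8 (0.99) and the Hippo pathway kinase Lats2 (0.99), whose r within the 7 heterozygous-round libraries was 0.76, 0.63 and 0.80. Prdm8 stood at a mean of 15.2 CPM in homozygous-round WT mice and 118 CPM in 1b-/- mice, and at 69.9 and 69.2 CPM in 1b+/- mice and their WT mice. Ntf3 was most alike to the Nogo receptor gene Rtn4r (0.98), the neuronal calcium sensor Ncs1 (0.98) and Fam19a2 (0.98), with 0.43, 0.22 and 0.47 within the heterozygous round.

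The receptors had other nearest genes. Ntrk2 was most alike to Osbpl10 (0.98), Ncoa7 (0.97) and the chromatin remodelling ATPase Smarca2 (0.96), and here r within the heterozygous round was also high (0.88, 0.90 and 0.85). Ntrk3 was most alike to the RNA-binding protein gene Celf2 (0.91), the calmodulin-binding neurogranin gene Nrgn (0.91) and the cadherin gene Celsr3 (0.90), with 0.88, 0.87 and 0.91 within the heterozygous round. Ngfr was most alike to the glycolytic regulator Pfkfb3 (0.97), Mctp1 (0.97) and Itm2a (0.97), with 0.74, 0.79 and 0.81. Among the 5 genes themselves, Bdnf and Ntf3 were the most alike (r = 0.96 over 11 libraries and 0.84 over the 7). Ngfr went against both over 11 libraries (-0.85 with Bdnf and -0.92 with Ntf3) but not within the heterozygous round (0.33 and 0.16).

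Around the ligands and receptors, 6 lists of 111 pathway genes were examined. In 1b+/- mice none of 110 tested genes was called by the edgeR quasi-likelihood test. An unadjusted p under 0.05 was found for 24 of the 110, and for 11.3% of all 14630 genes tested. In 1b-/- mice 2 of 110 rose and 7 fell, 8.18% against 3.58% of all genes tested. With the heterozygous-round WT mice as the reference, 27 rose and 48 fell, among 52.2% of all genes. Of the 9 called against their own WT mice, 8 were called in this comparison too and 7 in the same direction. Both comparisons use the same 1b-/- libraries, so they are not independent of each other. Without WT replicate 1 of the homozygous round 0 genes of any kind were called, and without WT replicate 2, when 192 genes were called, Sorcs1 and Camk4 were the only ones of the 9 that passed.

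Precursor processing and sorting held 14 tested genes with a median log2 fold change of 0.21 in 1b-/- mice, against -0.001 over all genes. Only Sorcs1, a sorting receptor of the family that binds p75 and its ligands, was called. It stood at 17.3 and 21.3 CPM in 1b-/- mice and at 68.4 and 61.6 CPM in their WT mice, well apart (log2 fold change -1.75, Benjamini-Hochberg adjusted p = 0.0207 in the edgeR quasi-likelihood test). Against the heterozygous-round WT mice its log2 fold change was -0.42 (adjusted p = 0.0166 in the same test). Of 24 Trk adaptors and co-receptors (median 0.05), Islr2 alone was called. Its product, also called Linx, is a membrane partner of Trk receptors, and it stood at 162 and 214 CPM in 1b-/- mice against 69.6 and 77.7 CPM in WT mice (log2 fold change 1.35, adjusted p = 0.0306), with a log2 fold change of 0.61 against the heterozygous-round WT mice (Benjamini-Hochberg adjusted p = 0.00377 in the edgeR quasi-likelihood test). None of the 13 partners of p75 (median 0.19) was called. Rtn4r, the Nogo receptor with which p75 forms a complex, stood at 135 and 129 CPM in 1b-/- mice against 41.7 and 67.5 CPM in WT mice (log2 fold change 1.27, adjusted p = 0.0584 in the edgeR quasi-likelihood test and 2.1e-05 in DESeq2), and Ngfrap1, which binds the p75 intracellular part, at 224 and 251 CPM against 194 and 173 CPM (0.37, adjusted p = 0.162). Against the heterozygous-round WT mice both passed, Rtn4r at a log2 fold change of 1.30 (adjusted p = 3.7e-05) and Ngfrap1 at 1.15 (adjusted p = 8.4e-07), in the edgeR quasi-likelihood test with Benjamini-Hochberg adjustment. With all 11 libraries in 1 fit Ngfrap1 was called against its own WT mice too (0.36, adjusted p = 0.00512 in the same test). In 1b+/- mice Ngfrap1 went the other way, with a mean of 90.2 CPM against 102 CPM in their WT mice. The log2 fold change was -0.18 (adjusted p = 0.195 in the edgeR quasi-likelihood test and 0.0479 in DESeq2). The groups did not overlap, as for 10.9% of all genes tested in that round.

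The kinases downstream of Trk receptors included 3 of 26 that fell in 1b-/- mice (list median 0.01). They were Camk4, the calcium-dependent kinase that acts on CREB (175 and 149.7 CPM against 523 and 439 CPM, log2 fold change -1.57, adjusted p = 0.0223), Rps6ka3, which encodes the kinase RSK2 (38.5 and 31.6 CPM against 81.7 and 92.8 CPM, -1.32, adjusted p = 0.0276), and Rps6ka5, which encodes MSK1 (16.2 and 12.3 CPM against 47.1 and 35.4 CPM, -1.53, adjusted p = 0.0349), with Benjamini-Hochberg values of the edgeR quasi-likelihood test. In each case the WT mice were higher than either 1b-/- mouse. These 3 also passed against the heterozygous-round WT mice, at -1.01, -0.87 and -1.0. None of the 17 regulators of Bdnf transcription was called (median 0.06). Npas4, an activity-induced factor that acts on Bdnf promoters, had 20.7 and 5.07 CPM in 1b-/- mice and 12.6 and 31.95 CPM in their WT mice, and 31.3, 16.9, 24.7 and 23.8 CPM in 1b+/- mice against 17.9, 12.9 and 11.9 CPM in theirs. Its groups overlapped in both rounds, and the 1b+/- log2 fold change was 0.76 (Benjamini-Hochberg adjusted p = 0.228 in the edgeR quasi-likelihood test, 0.0301 in its likelihood ratio test and 0.00707 in DESeq2). In 1b-/- mice it was -0.79 against their own WT mice and -0.20 against those of the heterozygous round, and neither passed. Mef2d, another factor known at Bdnf promoters, had a 1b-/- log2 fold change of 0.56 (adjusted p = 0.113), and of 0.36 against the heterozygous-round WT mice (Benjamini-Hochberg adjusted p = 0.0125 in the edgeR quasi-likelihood test).

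**Figure D4:**
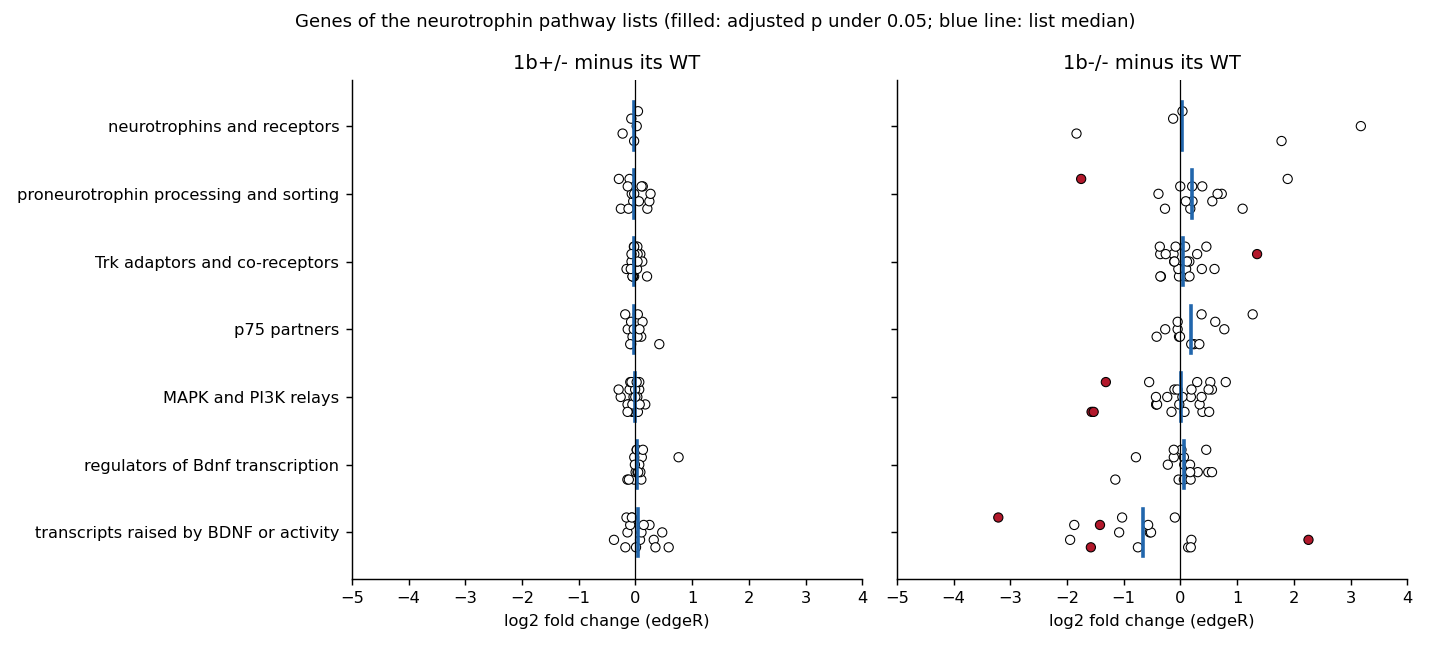
Log2 fold changes of the tested genes of the 5 neurotrophin genes and of 6 pathway lists, in 1b+/- mice (left) and 1b-/- mice (right), each against the WT mice of its round; filled points have an adjusted p under 0.05 and blue lines are list medians. No point is filled on the left, and on the right 2 are filled above 0 and 7 below it, with the transcripts raised by BDNF or activity at a median of -0.66.

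The list of 16 transcripts raised by BDNF or by neuronal activity had the lowest median in 1b-/- mice, -0.66, with 12 of 16 negative, 3 lower and 1 higher by the test. Egr2, an immediate early transcription factor, stood at 1.73 and 0.940 CPM in 1b-/- mice against 13.1 and 11.8 CPM in WT mice (log2 fold change -3.21, adjusted p = 0.0238). Arc, whose protein acts at synapses, stood at 126 and 87.7 CPM against 338 and 301 CPM (-1.58, adjusted p = 0.0307), and the postsynaptic scaffold gene Homer1 at 71.7 and 56.0 CPM against 177 and 165 CPM (-1.42, adjusted p = 0.0251). For all 3, neither 1b-/- mouse reached the WT range.

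Dusp4, a phosphatase that acts on MAP kinases, went the other way, at 13.9 and 16.4 CPM in 1b-/- mice against 3.20 and 3.13 CPM in WT mice (log2 fold change 2.26, adjusted p = 0.0207). The adjusted values come from the edgeR quasi-likelihood test after Benjamini-Hochberg correction. Against the heterozygous-round WT mice Egr2 (-3.07) and Homer1 (-1.58) also fell, Arc had -0.73 (adjusted p = 0.0521), and Dusp4 reversed to -0.62 (Benjamini-Hochberg adjusted p = 0.0207 in the edgeR quasi-likelihood test), as it stood at 24.1, 25.6 and 16.8 CPM in those WT mice on their own scale. In the same 1b-/- libraries Bdnf, itself a transcript raised by activity, had -0.24 against the heterozygous-round WT mice, which did not pass. In 1b+/- mice the list had a median of 0.05, against 0.0007 over all genes, with no call and Arc at 348, 207, 257 and 204 CPM against 209, 183 and 115 CPM.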

How the data were processed

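RNA-seq of 11 hippocampus libraries was analysed. The deposited values are raw counts per gene, which the authors made, per the labels and the paper, by aligning reads to mm9 with STAR 2.7.2 and counting with featureCounts, without normalization. Libraries were stranded, poly(A)-selected and sequenced as short single-end reads (homozygous round) or longer paired-end reads (heterozygous round). The strand setting of the counting is not given in the sources used here. Ribosomal precursor Rn45s took 2.38% to 4.45% of counts in the heterozygous and 0.0718% to 0.144% in the homozygous round. The 27 gene symbols per table that a spreadsheet had turned into dates (at most 0.372% of counts) stayed in the fits of each round but not in joint fits. Columns were mapped to samples by name.

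Counts entered edgeR 4.0.16 (R 4.3.3). The tested genes reached 1 CPM in at least 1 library, TMM supplied the scaling, and quasi-likelihood F tests were adjusted by Benjamini-Hochberg over every tested gene with a threshold of 0.05. Each genotype was set against its own round's WT mice, and the difference between genotypes used all 11 libraries. The biological coefficient of variation came to 9.13% (heterozygous round) and 22.9% (homozygous round). The labels give separate samples per group and no more. Pairs within a group differed by a chi-square of at least 5.95 per gene, so none were merged. Depth matters little beside the spread between mice, except for Ngfr and Ntf3. RPKM used exon lengths of GENCODE vM1. Alternatives were DESeq2 1.42.0, the likelihood ratio test, 2 other scalings (upper quartile, RLE), 2 other filters (filterByExpr, none), a sex term, a joint fit of the rounds, and omission of each library. On simulated counts with 200 genes changed by 1.5 (log2), the quasi-likelihood test recovered 99.5% (11 false calls, 14457 genes) in the heterozygous, 79.0% (3 false calls, 14552 genes) in the homozygous design and 84.5% (8 false calls, 14554 genes) for the difference between genotypes. The changed genes were taken above a count floor, and no other difference between groups was simulated. These rates do not apply to smaller changes, such as that of Scn1a in 1b+/- mice (-0.47).

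The 5 genes are defined by their symbols alone, but they were proposed, and the lists chosen, with earlier results of these data known. The text names the 5 genes, Scn1a, every pathway gene called in either genotype, the 2 genes of smallest p of a list without calls, leading markers of lists that moved, and the 3 genes most alike to each of the 5. Drd2 and Pdzd2 were named from their lists, and the coefficients of variation recomputed with each library left out, after the values were seen. Some genes of the neurotrophin system are not reported here.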

Additional observations from a re-analysis of the deposited data

Results flagged for a closer look

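The results below were sought only among the ligands and receptors, Scn1a and the pathway genes named in the Results. In those listed, the 1b-/- change and the 1b+/- change, each against its round's WT mice, differed with an adjusted p under 0.05. The test was edgeR's quasi-likelihood test of the difference with Benjamini-Hochberg adjustment, which called 27.3% of 14905 genes. Other pathway genes passed it too, among them Egr1, Fos, Furin and Lingo1, so the list is not complete. The rounds also differ in read type and in the sex and region markers of their WT mice. Values are the 1b-/- minus the 1b+/- log2 fold change. Among the ligands and receptors it was 1.80 for Bdnf, 3.15 for Ntf3 and -1.62 for Ngfr, and for the targeted gene Scn1a it was -2.36.

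Among pathway genes it was -1.47 for Sorcs1, 1.26 for Islr2, 1.22 for Rtn4r, 0.544 for Ngfrap1 and 0.514 for Mef2d. Among the kinases it was -1.35 for Rps6ka3, -1.40 for Rps6ka5 and -1.55 for Camk4. Among the transcripts raised by BDNF or activity it was -2.17 for Arc, -3.16 for Egr2, -1.33 for Homer1 and 2.16 for Dusp4. Arc and Dusp4 were positive in 1b+/- mice (0.59 and 0.08), where neither passed the test. Ngfrap1 was negative in 1b+/- mice (-0.18) and did not pass there either. The difference for Mef2d passed in 11 of 15 alternatives, while those for Bdnf, Ntf3 and Ngfr passed in all 15. All of these alternatives share the estimate of spread between the rounds. In the group of 4 1b+/- mice no library of the 5 genes passed Dixon's 95% critical value. The nearest to it was the female mouse in Ngfr, whose gap to the next mouse was 0.797 of the group's range.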

How the results depend on the processing

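No paired analysis was possible because the replicate numbers only name the mice. The count of the 5 genes called in 1b+/- mice was 0 in all 15 alternatives, although genes called overall rose from 0 to 191 with the likelihood ratio test, 245 with DESeq2 and 44 without a filter, and ran from 0 to 421 over the libraries left out, the highest without WT replicate 1. In 1b-/- mice genes called went from 531 to 1829 with the likelihood ratio test, 2144 with DESeq2, 1029 without a filter, 5541 with all 11 libraries and 7774 against the heterozygous-round WT mice, and ran from 0 (without WT replicate 1) to 693 over the libraries left out, with 192 without WT replicate 2. Of the 5 genes, 3 (Bdnf, Ntf3 and Ngfr) were then called with the likelihood ratio test (1.78, 3.18 and -1.83), DESeq2 (1.79, 3.19 and -1.83), no filter (1.79, 3.19 and -1.83) and all 11 libraries (1.77, 3.18 and -1.84), and 1 (Bdnf, 1.92) with sex as a covariate. Leaving out a library called between 0 and 2 of the 5: Bdnf ran from 1.38 to 2.35 (called without 1b-/- replicate 1 and without WT replicate 2), Ntf3 from 2.54 to 4.35 and Ngfr from -2.26 to -1.50 (both called without 1b-/- replicate 2). Adjusted p-values over all alternatives lay between 9.8e-06 and 0.351 for Bdnf. The cause of these changes was not tested.

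Against the heterozygous-round WT mice, signs reversed for Bdnf (-0.24), Ngfr (0.51), Ntrk3 (-0.074) and Dusp4 (-0.62). Other reversals were of values near 0, except that of Npas4 in 1b-/- mice (-0.79 with all libraries, 0.035 without WT replicate 2). In 1b+/- mice sex as a covariate gave Bdnf 0.014, Camk4 0.0094 and Egr2 0.11. With libraries left out, the 1b+/- ranges were -0.092 to 0.082 for Bdnf, -0.067 to 0.18 for Ntf3, -0.073 to 0.046 for Camk4, -0.28 to 0.11 for Egr2, -0.17 to 0.017 for Homer1, -0.069 to 0.076 for Rps6ka3, -0.078 to 0.20 for Dusp4 and -0.0050 to 0.10 for Mef2d. In 1b-/- mice they were -0.31 to 0.068 for Ntrk2, -0.026 to 0.10 for Ntrk3 and -2.13 to 0.035 for Npas4, and for the difference between genotypes -0.26 to 0.13 for Ntrk2 and -0.084 to 0.043 for Ntrk3. The difference between genotypes called 3 of the 5 genes in all 15 alternatives. Every alternative for the difference between genotypes kept at least 1 of the 2 homozygous-round WT libraries. These alternatives therefore cannot show how much of the difference lies in those libraries. With 2 mice per genotype, leaving one out leaves a lone mouse that is assumed to vary like the others.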
